A study of Mus musculus with 6 samples.

Results

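The transcription factors described here are those that specify and mature enteroendocrine cells, the hormone-secreting cells of the gut lining. They were taken by symbol from the deposited expression table as Neurog3, Neurod1, Pax6, Pax4, Isl1, Nkx2-2, Rfx6, Insm1 and Fev, and all 9 were among the 17256 genes of that table. The libraries are 3 from C57BL/6 mice given PEEPA-P5 by gavage for 2 weeks and 3 from C57BL/6 mice given vehicle for 2 weeks. All animals, the vehicle ones included, first had atrophic gastritis induced over 20 weeks with MNNG, an alkylating carcinogen, and a drug the labels spell Ranitine. RNA came from the frozen epithelium of the antrum, the distal part of the stomach. PEEPA-P5 is known only by that code name, no gastritis-free group was analysed here, and nothing in the labels ties each library to its own mouse. The p-values therefore measure the spread between libraries, which may be technical. The question of the comparison is how these transcripts stand after PEEPA-P5 relative to vehicle in mice with gastritis.

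Enteroendocrine cells arise from epithelial progenitors that switch on the basic helix-loop-helix factor Neurogenin 3 for a short time, a step that Notch signalling restrains. Neurogenin 3 then gives way to factors such as Neurod1, Insm1, Pax6, Pax4, Nkx2-2, Rfx6, Isl1 and Fev, which act in cells leaving the cell cycle and in hormone-producing cells. In the antrum these cells include gastrin, somatostatin, ghrelin and serotonin cells, and most of what is known of the cascade comes from the mouse intestine and pancreas.

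Total counts were 16494792 to 16903545 with PEEPA-P5 and 16388844 to 16833280 with vehicle. The general enteroendocrine marker Chga stood at 4.98 to 49.4 TPM (a level per transcript length, scaled to the same total in every library) with PEEPA-P5 and at 79.6 to 101 TPM with vehicle. PEEPA-P5 3 and vehicle 3 stood apart from the libraries of their own group. PEEPA-P5 3 had summed levels of 20.7 CPM (counts scaled to library size) for 6 smooth muscle markers and 30.7 CPM for 9 fibroblast and endothelial markers, against at least 98.6 and 193 CPM in each other library. The chief-cell zymogen gene Pgc was at 6512, 8774 and 2065 TPM in PEEPA-P5 1, 2 and 3, against 8169, 22536 and 68237 TPM in vehicle 1, 2 and 3. The parietal-cell pump gene Atp4a was at 1.51, 119.6 and 0.07 TPM with PEEPA-P5, against 115, 567 and 892 TPM with vehicle, so it also varied widely within both groups. Vehicle 3 had 610 TPM of Gast, the hormone of antral G cells, where vehicle 1 and 2 had 9492 and 6822 TPM of Gast. In PEEPA-P5 3 Gast was at 199 TPM, against 7032 and 4990 TPM in PEEPA-P5 1 and 2.

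All 8 tested transcription factors had a lower fitted level with PEEPA-P5, but 0 of the 8 passed the test over all genes. In that test, edgeR's quasi-likelihood test with Benjamini-Hochberg adjustment over 13071 genes at 0.05, 0 genes were called, or 0%, and the smallest adjusted p was 0.412. DESeq2, run as an alternative, called 110 genes, or 0.834%, and again 0 of the 8 factors. The median log2 fold change of the 8 factors was -0.76, beside -0.0047 over all tested genes, and 50.6% of all tested genes had a negative value. The factors share their cells and their libraries and are not independent of each other. The 9 genes summed to 10.7, 8.69 and 1.47 TPM in PEEPA-P5 1, 2 and 3, against 12.8, 18.5 and 7.34 TPM in vehicle 1, 2 and 3. In these bulk samples fewer enteroendocrine cells, less RNA per cell and a different make-up of the sampled tissue cannot be told apart.

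**Figure D1:**
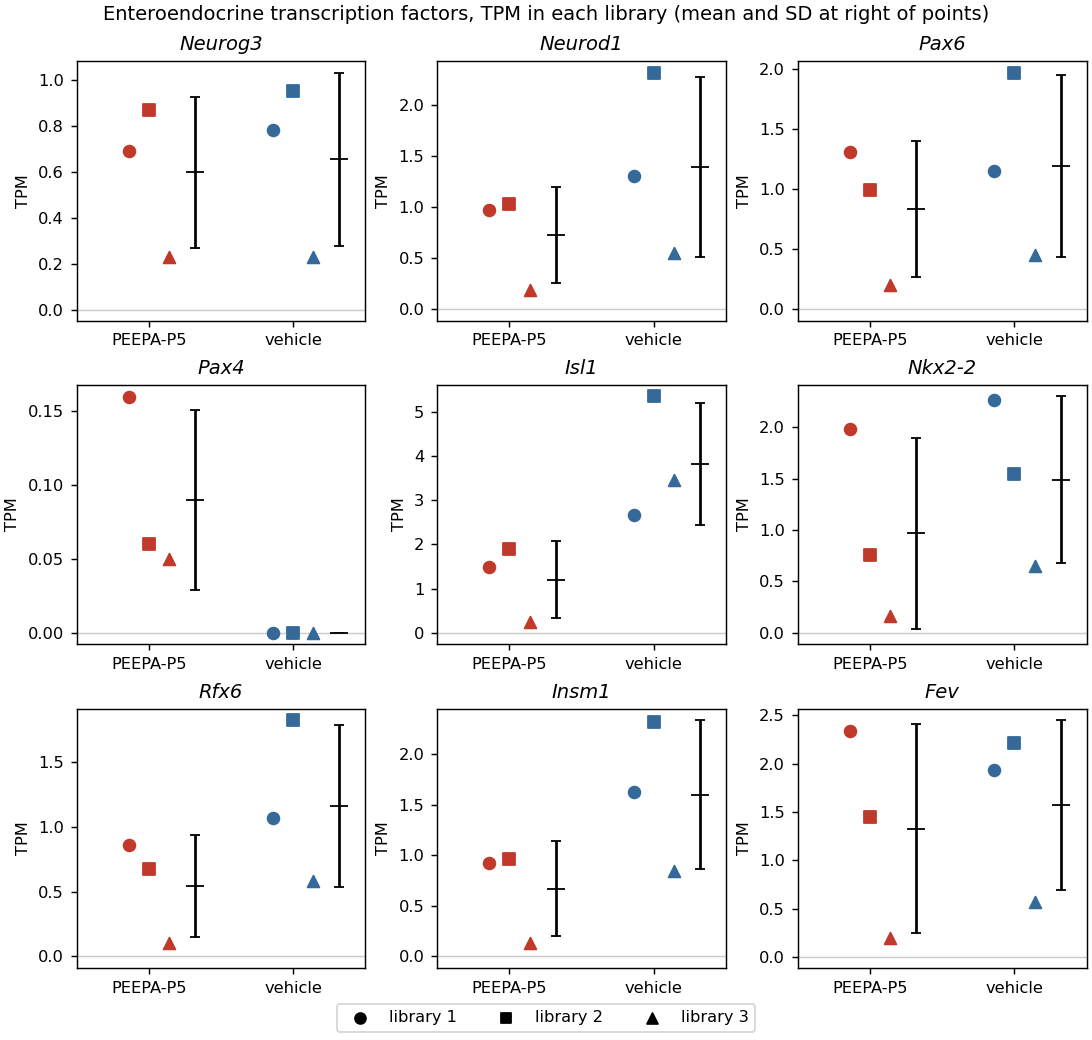
TPM of each of the 9 transcription factors in every library, with PEEPA-P5 in red on the left and vehicle in blue on the right of each panel, marker shapes for library numbers 1 to 3, and the mean with SD in black (n = 3 each). Isl1 is separate between groups, with 0.23 to 1.90 TPM with PEEPA-P5 against 2.66 to 5.37 TPM with vehicle, and in 7 of the 8 tested genes the lowest point of each group is library 3.

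Neurog3 (Entrez 11925) encodes Neurogenin 3, the factor that commits progenitors to the endocrine lineage. It had 15, 19 and 5 counts in PEEPA-P5 1, 2 and 3, against 17, 20 and 5 counts in vehicle 1, 2 and 3. The values of same-numbered libraries lay close together, and library 3 was low in both groups. In TPM it averaged 0.597 ± 0.33 with PEEPA-P5 and 0.653 ± 0.376 with vehicle (SD, n = 3 each). The log2 fold change was -0.02 with a standard error of 0.63, and its 95% interval ran from -1.51 to 1.47 (edgeR adjusted p = 0.992). A count of 5 alone has an exact Poisson interval of 1.62 to 11.7, which covers counting error only. In GENCODE M21 transcripts 14.6% of the 31-base stretches of Neurog3 lie antisense to Fam241b, which had 88, 110 and 84 counts with PEEPA-P5 and 109, 125 and 135 counts with vehicle. No source used here states the strand setting of the libraries or of the counting, and reads of both genes in that stretch cannot be told apart without it.

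Neurod1 (Entrez 18012), a helix-loop-helix factor that Neurogenin 3 activates and that drives cell-cycle exit, had 37, 39 and 7 counts with PEEPA-P5, against 50, 85 and 21 counts with vehicle. Its level was 0.97, 1.03 and 0.18 TPM with PEEPA-P5 and 1.31, 2.32 and 0.55 TPM with vehicle. Each PEEPA-P5 library was below the vehicle library of the same number, but the groups overlapped, because vehicle 3 lay below PEEPA-P5 1 and 2. Its log2 fold change was -0.82 with a standard error of 0.66 and a 95% interval of -2.38 to 0.74 (edgeR adjusted p = 0.607). Of its 31-base stretches, 6.56% also occur in transcripts of Cerkl, Gm43154 or Cngb1, and 4.63% lie antisense to Gm26755. Cerkl had at most 8 counts in any library.

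Insm1 (Entrez 53626), a zinc-finger factor of endocrine progenitors and mature endocrine cells, had 43, 45 and 6 counts with PEEPA-P5, against 77, 105 and 40 counts with vehicle. Its level was 0.92, 0.96 and 0.13 TPM with PEEPA-P5 and 1.63, 2.32 and 0.85 TPM with vehicle. The groups overlapped narrowly, with vehicle 3 just below PEEPA-P5 1 and 2 in TPM. Fitted over all libraries, the log2 fold change was -1.16 with a standard error of 0.64 and a 95% interval of -2.68 to 0.36 (edgeR adjusted p = 0.483). With the library number as a block in edgeR, the unadjusted p of Insm1 was 0.027 in place of 0.114, and the adjusted p was 0.364. Pairing by number was taken from these same data and not from the labels, so the smaller p is not separate support.

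Rfx6 (Entrez 320995), a winged-helix factor needed for islet cells and for several enteroendocrine types, had 43, 32 and 5 counts with PEEPA-P5, against 54, 95 and 29 counts with vehicle. That gave 0.86, 0.67 and 0.10 TPM with PEEPA-P5 and 1.07, 1.82 and 0.58 TPM with vehicle. Only vehicle 3 lay within the PEEPA-P5 range. A log2 fold change of -1.07 was fitted, with a standard error of 0.69 and a 95% interval of -2.69 to 0.56 (edgeR adjusted p = 0.531).

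Nkx2-2 (Entrez 18088), a homeodomain factor that sets the balance between hormone cell types, had 65, 30 and 5 counts with PEEPA-P5, against 84, 63 and 24 counts with vehicle. Its level was 1.98, 0.76 and 0.16 TPM with PEEPA-P5 and 2.27, 1.55 and 0.65 TPM with vehicle. Unlike Neurod1, Insm1, Rfx6 and Isl1, it was highest in library 1 of both groups, and the groups overlapped over most of their range. The log2 fold change was -0.70 with a standard error of 0.78 and a 95% interval of -2.55 to 1.16 (edgeR adjusted p = 0.713). In GENCODE M21, 8.7% of its 31-base stretches lie antisense to the transcript Nkx2-2os.

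Isl1 (Entrez 16392), a LIM-homeodomain factor of several hormone cell types that is also active in neurons and in developing stomach mesenchyme, was the factor with the largest difference. It had 57, 73 and 9 counts in PEEPA-P5 1, 2 and 3, against 103, 199 and 134 counts in vehicle 1, 2 and 3. In TPM this was 1.48, 1.90 and 0.23 with PEEPA-P5 and 2.66, 5.37 and 3.46 with vehicle. Every PEEPA-P5 library lay below every vehicle library. Groups without overlap in that direction occurred in 10.7% of all tested genes, and Isl1 was the single case among the 8 factors. In the opposite direction it was 9.74% of all tested genes and 0 of the 8 factors. The log2 fold change was -1.59 with a standard error of 0.62 and a 95% interval of -3.05 to -0.14 (edgeR unadjusted p = 0.036, adjusted p = 0.412), a level 3.02-fold lower with PEEPA-P5. An exact two-sided permutation test gave p = 0.1, the smallest that 3 against 3 libraries allow. An unadjusted p under 0.05 with a lower level was found for 6.14% of all tested genes, and for 1 of the 8 factors, Isl1. With a higher level it was 5.92% of all tested genes and 0 of the 8. By DESeq2 a lower level at an unadjusted p under 0.05 was found for 5.53% of genes and again for Isl1 alone of the 8, whose adjusted p was 0.173. With the library number as a block it was 2 of the 8, Isl1 and Insm1, beside 7.06% of all tested genes. Without PEEPA-P5 3 the log2 fold change of Isl1 was -1.12 (edgeR adjusted p = 0.556), and without both libraries numbered 3, an alternative chosen after seeing the data, it was -1.11 (edgeR adjusted p = 0.598). The unadjusted edgeR p of Isl1 was above 0.05 without PEEPA-P5 1 (0.0644), without vehicle 2 (0.102) and without vehicle 3 (0.0721).

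Pax6 (Entrez 18508), a paired-box factor that activates hormone genes such as glucagon, had 78.6, 58.6 and 12.6 estimated counts with PEEPA-P5, against 70.4, 111 and 25.5 estimated counts with vehicle. PEEPA-P5 1 lay above vehicle 1, whereas PEEPA-P5 2 and 3 lay below the vehicle libraries of the same number. The log2 fold change was -0.36 with a standard error of 0.66 (edgeR adjusted p = 0.826). Pax4 (Entrez 18506), a related factor of early endocrine progenitors, had 3, 1 and 1 counts with PEEPA-P5 and 0, 0 and 0 counts with vehicle, and these counts did not pass the expression filter of the main test. Fitted without that filter, Pax4 had an edgeR unadjusted p of 0.0413 and an adjusted p of 0.471, and a DESeq2 unadjusted p of 0.261. No fold change is given, since every library was at or under a floor of 3 counts, the one-sided limit that a count of 0 allows.

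Fev (Entrez 260298), an ETS factor best known from serotonin neurons and also found in endocrine progenitors, had 49, 30 and 4 counts with PEEPA-P5, against 41, 46 and 13 counts with vehicle. Its level was 2.34, 1.45 and 0.19 TPM with PEEPA-P5 and 1.93, 2.21 and 0.57 TPM with vehicle. The highest single library was PEEPA-P5 1 and the lowest PEEPA-P5 3, so the spread within the PEEPA-P5 group covered all vehicle values. The log2 fold change was -0.19 with a standard error of 0.78 and a 95% interval of -2.02 to 1.64 (edgeR adjusted p = 0.928).

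**Figure D2:**
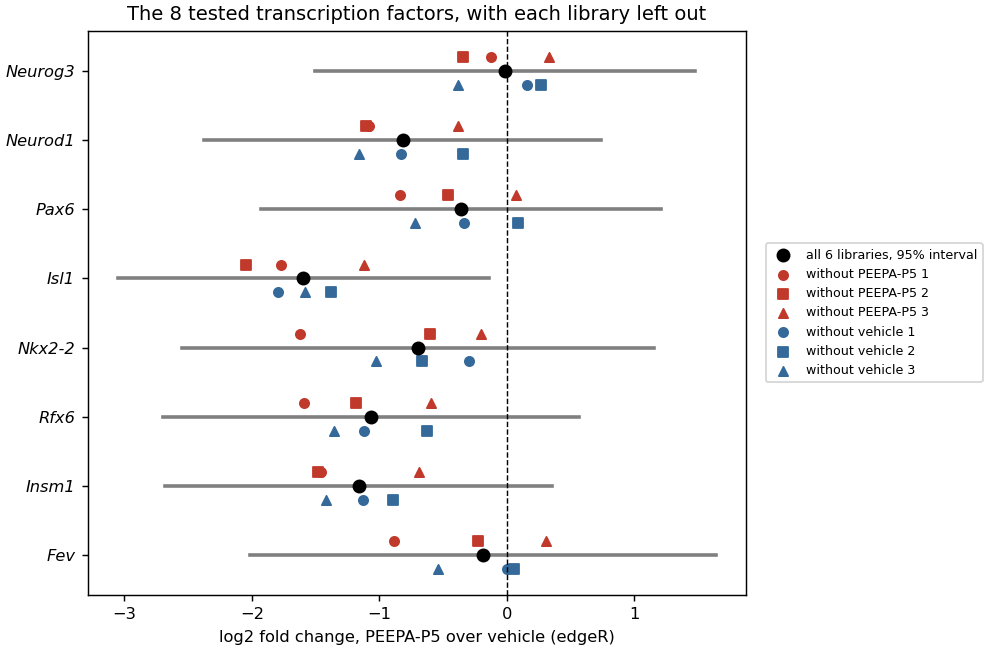
Log2 fold change, PEEPA-P5 over vehicle, of the 8 tested factors. Black points with grey bars give the value and 95% interval over all 6 libraries, and coloured points give the value with a library left out. Isl1 is the gene whose interval ends below 0, at -0.14, and Neurog3, Pax6 and Fev cross 0 when PEEPA-P5 3 or vehicle 2 is left out.

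The direction of the group rested partly on single libraries. Without PEEPA-P5 3, 5 of the 8 factors were lower and 3 higher, and the median log2 fold change was -0.29. Without vehicle 2 the count was again 5 lower and 3 higher, with a median of -0.49. Without vehicle 1 it was 6 lower and 2 higher, with a median of -0.58. Without both libraries numbered 3, the alternative chosen after seeing the data, 8 of 8 were lower and the median was -0.63. Neurod1, Isl1, Nkx2-2, Rfx6 and Insm1 were lower in all 3 same-numbered pairs, which makes 5 of 8 factors beside 24.5% of all tested genes. The labels do not state these pairs, which were taken from the same data.

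By mean TPM with PEEPA-P5, the order was Fev (1.33 ± 1.08), Isl1 (1.203 ± 0.869), Nkx2-2 (0.967 ± 0.927), Pax6 (0.833 ± 0.571), Neurod1 (0.727 ± 0.474), Insm1 (0.67 ± 0.468), Neurog3 (0.597 ± 0.33), Rfx6 (0.543 ± 0.396) and Pax4 (0.09 ± 0.0608; SD, n = 3 each). Neighbouring genes in that order, from Fev to Rfx6, differed by less than their SD. With vehicle it was Isl1 (3.83 ± 1.39), Insm1 (1.60 ± 0.735), Fev (1.57 ± 0.877), Nkx2-2 (1.49 ± 0.812), Neurod1 (1.39 ± 0.888), Pax6 (1.19 ± 0.761), Rfx6 (1.16 ± 0.625) and Neurog3 (0.653 ± 0.376), with Pax4 at 0. There Isl1 stood above the next gene by more than the SD of either, and the genes from Insm1 to Rfx6 each differed from the next by less than their SD. Rfx6 and Neurog3 differed by less than the SD of Rfx6 but by more than that of Neurog3.

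Isl1 made up 13.8%, 21.9% and 15.6% of the summed TPM of the 9 genes in PEEPA-P5 1, 2 and 3, against 20.8%, 29.0% and 47.1% in vehicle 1, 2 and 3. Its share was highest in vehicle 3, the library with the most Pgc and Atp4a, and the groups overlapped at PEEPA-P5 2 and vehicle 1. Neurog3 per unit of Neurod1 TPM was 0.711, 0.845 and 1.28 with PEEPA-P5, against 0.595, 0.409 and 0.418 with vehicle, so the early factor was higher relative to its target in each PEEPA-P5 library. Fev per unit of Insm1 TPM was 2.54, 1.51 and 1.46 with PEEPA-P5, against 1.18, 0.953 and 0.671 with vehicle. These ratios were chosen after their values were seen, carry no test, and in PEEPA-P5 3 rest on 4 to 7 counts per gene.

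**Figure D3:**
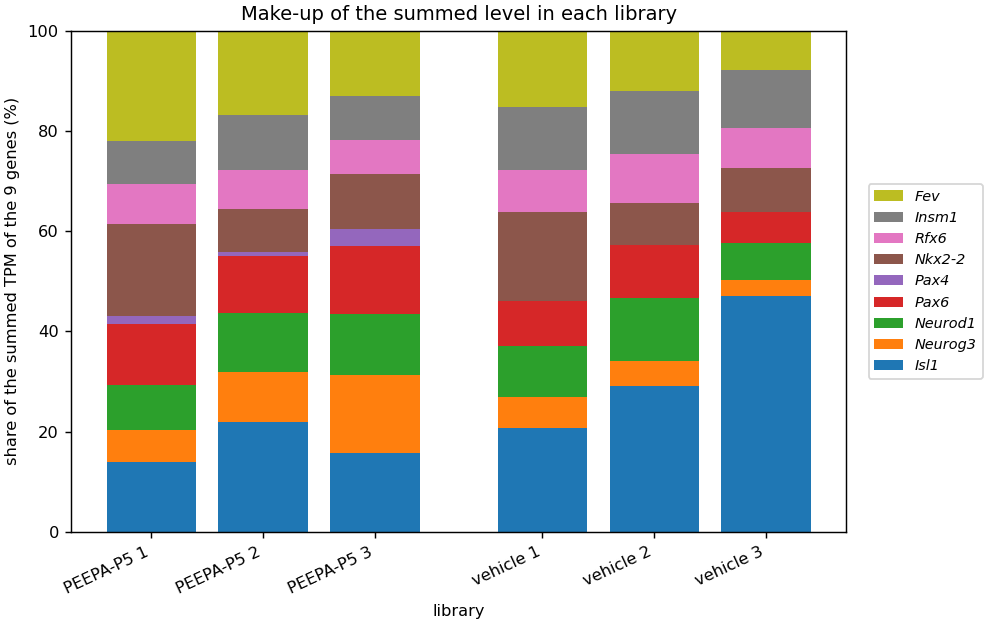
Share of the summed TPM of the 9 factors taken by each gene, in percent, stacked for the 3 PEEPA-P5 libraries on the left and the 3 vehicle libraries on the right. The Isl1 share at the bottom of each bar is 13.8% to 21.9% with PEEPA-P5 and 20.8% to 47.1% with vehicle.

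Most of the factors were low in library 3 of both groups. In 7 of the 8, all but Isl1, library 3 was the lowest of its group in both groups, which held for 20% of all tested genes. Vehicle 3 was the lowest vehicle library for the same 7, beside 35.7% of all tested genes. PEEPA-P5 3 was the lowest of all 6 libraries for 7 of the 8, all but Neurog3, beside 31.4% of all tested genes. The closest pair was Rfx6 and Insm1, whose log2 CPM, each centred on its mean over the 6 libraries, differed by a root mean square of 0.19, and the most distant was Neurog3 and Isl1, at 1.15. Isl1 departed from the others in vehicle 3, where it was 1.01 log2 units above its own mean while the other 7 lay between -0.92 (Neurog3) and 0.07 (Insm1) relative to theirs.

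Among 12023 other genes with a mean of at least 1 CPM, the 3 closest by the same measure were named for 6 of the factors, over 6 libraries and as a description. For Isl1 they were Eng, Timp3 and Fbln2 (0.17, 0.18 and 0.19), where the median over all candidates was 1.29. Eng encodes endoglin of endothelium, and Timp3 and Fbln2 encode extracellular matrix proteins. Whether a likeness to such genes is particular to Isl1 among the factors was not tested. For Neurod1 they were Podn, Snai2 and Aspn (0.13, 0.17 and 0.17), and for Insm1 Tmtc1, Olfml2b and Spi1 (0.11, 0.14 and 0.14). For Rfx6 they were Prox1, Kcnk16 and Sorcs2 (0.14, 0.15 and 0.17). Pax6 was closest to Wnt5b, Pcyt1b and the somatostatin receptor gene Sstr1 (0.19, 0.20 and 0.20), and Fev to Sema3a, Mxra7 and Syt13 (0.23, 0.23 and 0.25). Neurog3, at a mean of 0.788 CPM, was left out by the level required.

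Markers of stroma were low in the same PEEPA-P5 library as the factors. All 9 of 9 fibroblast and endothelial markers had a negative log2 fold change, with a median of -0.83, and their summed level was 30.7 to 348 CPM with PEEPA-P5 and 193 to 420 CPM with vehicle. The 6 of 6 smooth muscle markers were likewise negative, with a median of -0.79 and summed levels of 20.7 to 257 CPM with PEEPA-P5 and 138 to 302 CPM with vehicle. Acta2, Col3a1 and Dcn were each lowest in PEEPA-P5 3, and no marker of these lists was at 0 in any library. In none of these markers did the test over all genes reach its threshold, and their part in the values of the factors was not tested. Parietal and chief cell markers were lower with PEEPA-P5 in 10 of 10 genes, with a median log2 fold change of -2.37 and summed levels of 2851 to 10755 CPM with PEEPA-P5 and 10142 to 91324 CPM with vehicle. By edgeR 0 of the 10 passed, and by DESeq2 2 did, Kcnj15 and Slc26a7. Pit cell markers were higher in 4 of 4, with a median of 0.30. They summed to 138919 to 170962 CPM with PEEPA-P5 against 107698 to 127822 CPM with vehicle. The part of parietal, chief and pit cells in the values of the factors was not tested either. Enteric neuron markers summed to 2.08 to 6.13 CPM with PEEPA-P5 and 4.23 to 9.01 CPM with vehicle over 12 of the 14 listed genes found in the table. The highest of them by mean TPM, Uchl1, which endocrine cells also express, was at 0 to 1.39 TPM with PEEPA-P5 and 0.99 to 2.83 TPM with vehicle, levels like those of the factors. The next of these markers by mean CPM, Ret, Hand2 and Stmn2, reached 0.27, 0.84 and 0.67 TPM in their highest library. Nefm, Tubb3 and the neuronal RNA-binding gene Elavl4 reached 0.47, 0.50 and 0.10 TPM in their highest library. They were singled out after their values were seen. The part of neurons in the values of the factors was not tested. Pancreatic islet markers summed to 0.0672 to 0.482 CPM with PEEPA-P5 and 0.108 to 0.320 CPM with vehicle, and 0 of the 6 found passed the expression filter.

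**Figure D4:**
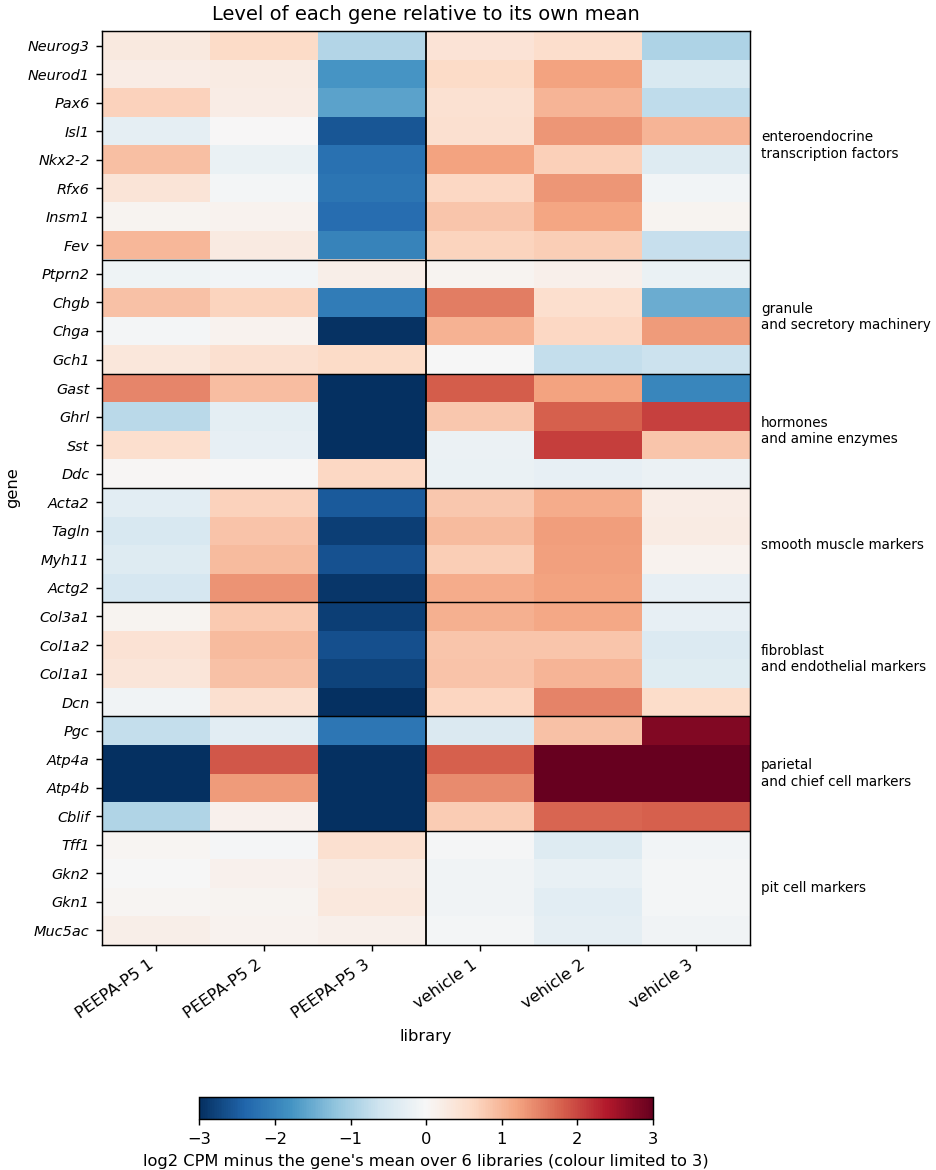
Log2 CPM of each gene minus its mean over the 6 libraries, red above and blue below that mean, with the 3 PEEPA-P5 libraries on the left and the 3 vehicle libraries on the right of the vertical line. The rows are the 8 tested factors and the 4 most abundant tested genes of 6 lists. In PEEPA-P5 3 the factors lie at -2.57 to -0.87 log2 units from their means, and 11 of the 12 hormone, smooth muscle and fibroblast genes, all but Ddc, lie at -3.54 to -2.525. The granule genes are split there, with Chga at -2.97 and Chgb at -2.10 but Ptprn2 at 0.19 and Gch1 at 0.56. Parietal and chief cell genes lie at -8.09 to -2.18. The pit-cell genes lie slightly above their means.

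Genes of the secretory apparatus, which these factors help switch on, showed much of the same ordering of libraries. Of 27 tested genes of hormone granules and secretion, 25 were lower and 2 higher with PEEPA-P5, with a median log2 fold change of -0.58. By edgeR 0 of these genes passed the threshold, and by DESeq2 1 did, Gch1. Among the 4 most abundant, Chga was at 42.9, 49.4 and 4.98 TPM with PEEPA-P5, against 96.7, 79.6 and 101 TPM with vehicle. Chgb, its sister granin, was at 82.1, 73.0 and 9.05 TPM with PEEPA-P5, against 132, 72.5 and 14.8 TPM with vehicle. Chga was separate between groups, whereas for Chgb vehicle 2 and 3 lay within the PEEPA-P5 range. Ptprn2, a granule membrane phosphatase, had a log2 fold change of -0.01, and Gch1, which makes a cofactor of amine synthesis, had a value of 0.89 (edgeR adjusted p = 0.412, DESeq2 adjusted p = 0.0156). Gch1 was at 28.4, 31.8 and 28.9 TPM with PEEPA-P5, against 22.9, 15.6 and 13.2 TPM with vehicle, and its groups did not overlap. Of the 27 genes, 4 were lower without overlap, beside 10.7% of all tested genes. In the opposite direction it was 1 of the 27, beside 9.74% of all tested genes. The medians over this list are not evidence apart from the factors, since they come from the same libraries.

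Relative to Chga, the summed TPM of the 9 factors was 249, 176 and 295 per 1000 TPM of Chga with PEEPA-P5, against 132, 232 and 72.6 with vehicle. Relative to Chgb it was 131, 119 and 162 per 1000 TPM with PEEPA-P5, against 96.6, 255 and 497 with vehicle. The order of the groups depended on which granin was the denominator, as vehicle 3 was high in Chga and low in Chgb, and the groups overlapped in both ratios. Per 1000 TPM of Ghrl the sum was 24.4, 13.3 and 25.6 with PEEPA-P5, against 8.95, 5.96 and 2.48 with vehicle, without overlap. Here the denominator itself was separate, with Ghrl at 57.4 to 652 TPM with PEEPA-P5 and 1430 to 3107 TPM with vehicle. The summed TPM of the factors overlapped, at 1.47 to 10.7 with PEEPA-P5 and 7.34 to 18.5 with vehicle. Per 1000 TPM of Gast it was 1.52 to 7.37 with PEEPA-P5 and 1.35 to 12.04 with vehicle, and per 1000 TPM of Sst it was 42.2 to 75.9 with PEEPA-P5 and 21.0 to 77.0 with vehicle, both overlapping. These ratios carry no test.

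Of 11 tested hormone and amine-enzyme genes, 9 were lower and 2 higher with PEEPA-P5, with a median log2 fold change of -0.35. By edgeR 0 of them passed, and by DESeq2 1 did, Hdc, which makes histamine in enterochromaffin-like and mast cells and is named here after its values were seen. Hdc was at 0.52, 0.63 and 0.16 TPM with PEEPA-P5, against 1.42, 1.31 and 7.59 TPM with vehicle, with a log2 fold change of -2.98 (edgeR adjusted p = 0.412, DESeq2 adjusted p = 0.0278). Its groups did not overlap, and vehicle 3 was far above the other libraries. Ghrl, which encodes ghrelin, was at 439.7, 652 and 57.4 TPM with PEEPA-P5, against 1430, 3107 and 2962 TPM with vehicle, and like Isl1 it was high in vehicle 3. Sst, which encodes somatostatin, was at 254, 157 and 19.4 TPM with PEEPA-P5, against 166, 882 and 298 TPM with vehicle. Ddc, which forms amines and is also expressed outside endocrine cells, was at 14.8, 14.8 and 19.4 TPM with PEEPA-P5, against 13.1, 14.1 and 11.8 TPM with vehicle. The groups overlapped for Sst and not for Ghrl or Ddc, and none of these 3 passed with edgeR or DESeq2. Of the 11 genes, 2 were lower without overlap, Hdc and Ghrl, beside 10.7% of all tested genes. In the opposite direction it was 1 of the 11, Ddc, beside 9.74% of all tested genes.

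The wider list of endocrine regulators was more evenly divided. Of 32 genes, 29 were in the table and 21 were tested, of which 13 were lower and 8 higher, with a median log2 fold change of -0.22 and 0 calls. Id1 and Id3, inhibitors of helix-loop-helix factors, were at 439.8 to 507 and 193 to 236 TPM with PEEPA-P5, against 299.5 to 472 and 133 to 218 TPM with vehicle. The antral factor gene Nkx6-3 was at 86.7 to 89.7 TPM with PEEPA-P5 and 60.0 to 94.4 TPM with vehicle, and Foxa1 was at 48.2 to 62.2 TPM with PEEPA-P5 and 53.6 to 63.1 TPM with vehicle. These 4 abundant genes, which many epithelial cells express, overlapped between groups and were not low in PEEPA-P5 3.

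In the list of Notch pathway and early secretory fate genes, 8 of 13 tested genes were lower and 5 higher, with a median log2 fold change of -0.21 and 0 calls. Hes1, the Notch target that represses Neurog3, was at 75.0, 73.2 and 74.8 TPM with PEEPA-P5, against 55.7, 66.2 and 69.3 TPM with vehicle. Its log2 fold change was 0.32 with a standard error of 0.15 (edgeR adjusted p = 0.426), and the groups overlapped on the CPM scale used for the test. Numb, Sox9 and Rbpj had log2 fold changes of 0.05, -0.49 and -0.16.

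Promoter sequences were read for factors at different steps of the cascade, to mark a motif of helix-loop-helix factors such as Neurogenin 3 and Neurod1. Whether these factors act on the windows shown was not tested. The table of RefSeq promoters (build GRCm38.p6) held 7 of the 9 genes. The 250 bases before the annotated start are printed for Neurog3, the earliest factor (chr10:62132840-62133089, plus strand), for Neurod1, its target (chr2:79456637-79456886, minus strand), for Isl1, with the largest difference (chr13:116309689-116309938, minus strand), and for Nkx2-2, with the most matches (chr2:147186403-147186652, minus strand). Capitals mark E-boxes, CANNTG, a motif that reads the same on both strands.
Neurog3: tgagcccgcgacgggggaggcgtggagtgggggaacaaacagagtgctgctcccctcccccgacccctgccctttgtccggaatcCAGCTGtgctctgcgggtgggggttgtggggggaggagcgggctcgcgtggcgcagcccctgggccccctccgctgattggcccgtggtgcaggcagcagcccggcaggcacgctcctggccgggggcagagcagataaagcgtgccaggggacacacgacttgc
Neurod1: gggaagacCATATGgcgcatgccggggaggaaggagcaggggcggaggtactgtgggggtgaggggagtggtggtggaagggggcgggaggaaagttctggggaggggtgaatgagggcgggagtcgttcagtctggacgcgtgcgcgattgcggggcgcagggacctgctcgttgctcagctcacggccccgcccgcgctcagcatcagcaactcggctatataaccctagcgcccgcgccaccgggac
Isl1: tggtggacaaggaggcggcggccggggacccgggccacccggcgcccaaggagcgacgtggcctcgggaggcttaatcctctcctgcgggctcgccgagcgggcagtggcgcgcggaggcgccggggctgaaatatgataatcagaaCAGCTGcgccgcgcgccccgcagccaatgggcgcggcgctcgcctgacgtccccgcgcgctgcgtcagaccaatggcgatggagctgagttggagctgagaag
Nkx2-2: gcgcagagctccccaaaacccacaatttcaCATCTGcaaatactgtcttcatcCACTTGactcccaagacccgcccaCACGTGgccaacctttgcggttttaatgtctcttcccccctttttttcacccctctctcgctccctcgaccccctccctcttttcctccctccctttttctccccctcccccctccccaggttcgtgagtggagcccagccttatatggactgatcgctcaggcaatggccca
A single E-box was found for Neurog3, Neurod1 and Isl1, at 165, 242 and 103 bases before the start, and 3 for Nkx2-2. That of Isl1, with the largest difference, and that of Neurog3, with the smallest, have the same 6 letters. Among the genes whose sequence is not printed, Rfx6 and Fev had 0 E-boxes. Pax6 had 0 in the window at chr2:105668646-105668895 and 1 in that at chr2:105682213-105682462. Of 32851 promoter windows of the same length, 66.2% held at least 1 E-box. The form CAGATG, read on both strands and contained in CANNTG, was found for Nkx2-2 alone among the 7 genes, in the first of its 3 E-boxes, and in 14.4% of all windows. A match is a description of letters and not of binding.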

How the data were processed

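RNA-seq of 6 libraries, 3 with PEEPA-P5 and 3 with vehicle, was analysed from a table of 17256 genes. Bowtie2 2.2.5, RSEM 1.2.12 and build mm9 are named in the submitters' processing notes, without their roles. Aligner settings and strand: not given in the sources used here. The deposited table holds, per the file headers, expected counts (estimated reads of a gene before any scaling) beside TPM and FPKM values; 9.82% of the expected counts were not whole (off by over 0.005). FPKM and the authors' group means were not used. Here expected counts were rounded and tested with edgeR 4.0.16 in R 4.3.3 (robust quasi-likelihood test, TMM factors, expression filter, 13071 genes tested, Benjamini-Hochberg over all of them). The fit was tested on simulated data. CPM uses TMM-scaled library sizes, and log2 CPM a prior count of 2. For every pair of libraries chi-square divided by its degrees of freedom was at least 13.3, and none was taken as a duplicate.

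The transcription factors, 13 further gene lists and the tests were chosen with earlier results of these data known. All factors are named; from each list at most 4 genes are named, those with the highest mean CPM, with the 3 genes nearest in level to a factor, and others only where singled out after their values were seen. The nearest genes of Nkx2-2 are not reported here. Correlations of same-numbered libraries, after subtracting group means, were 0.237, 0.346 and 0.235, so the numbers were taken as possible pairs. Those of differently numbered libraries ran from -0.349 (PEEPA-P5 3 and vehicle 2) to 0.176 (PEEPA-P5 1 and vehicle 2). The pairing comes from the data, as the labels do not say what a number means. Alternatives were DESeq2 1.42.0, limma-voom (limma 3.58.1), the replicate block, each library left out, other scalings and filters, and limma-trend on log2 values of TPM plus 1 or plus 0.1.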

Additional observations from a re-analysis of the deposited data

How the results depend on the processing

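No call on a factor changed under the 17 alternatives, and the smallest adjusted p of a factor was 0.173, for Isl1 with DESeq2. DESeq2 called 110 genes in all, where edgeR called 0 (1576 at an unadjusted p under 0.05) and limma-voom 0; leaving out each library gave 0 to 1 genes, the 1 without vehicle 1. Of 136 values of single factors, 128 kept their sign and their side of the threshold and 8 changed sign. Neurog3 was at 0.33 without PEEPA-P5 3, 0.16 without vehicle 1 and 0.27 without vehicle 2, and at its lowest -0.38. Pax6 was at 0.07 without PEEPA-P5 3 and 0.0891 without vehicle 2, and at its lowest -0.84. Fev was at 0.31 without PEEPA-P5 3, 0.00094 without vehicle 1 and 0.06 without vehicle 2, and at its lowest -0.89. With a library left out, Isl1 ranged from -2.04 to -1.12 and the median of the 8 factors from -1.27 to -0.29; that of the granule genes ranged from -0.90 to -0.15. The median of the factors was -0.42 with limma-trend on log2(TPM + 1), whose pseudocount is about as large as the levels, and -1.01 with limma-voom. With the replicate block 0 genes were called, and apart from the unadjusted p of Insm1 it changed no call. The cause of the changes of sign was not tested. Pax4 was tested in 2 alternatives, edgeR without the filter (adjusted p = 0.471) and DESeq2, which gave no adjusted p; the others gave no value for it. Totals of 39 and 42 counts limit Neurog3.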

Other observations

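Of 6 tested tuft cell genes, 5 were lower and 1 higher with PEEPA-P5, with a median log2 fold change of -0.35. Of 6 tested mast cell genes, 2 were lower and 4 higher, with a median of 0.29. Enteric glia markers had 2 tested genes, 1 lower and 1 higher, and of 4 tested neuron markers 3 were lower and 1 higher, with a median of -0.60. In these lists 0 genes passed the adjusted threshold of edgeR's quasi-likelihood test.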
